A study of Rattus norvegicus with 6 samples.

Results

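The genes described here encode adhesive and matricellular proteins of the cardiac matrix, namely fibronectin (Fn1), tenascin C (Tnc), periostin (Postn), osteopontin (Spp1), SPARC (Sparc), its relative SPARC-like 1 (Sparcl1) and the thrombospondins Thbs1, Thbs2, Thbs3 and Thbs4. They were chosen by symbol, and all 10 were found among the 21857 symbols of the count data. RNA-seq was performed on primary cardiac fibroblasts of healthy newborn Sprague-Dawley rats (NRCFs), taken within 3 days of birth, although the strain field of the labels reads Noway. The Vector group, labelled genotype WT, received the empty plasmid, and the other group, labelled FTO overexpression, received a plasmid carrying rat FTO, an enzyme that erases N6-methyladenosine (m6A) from RNA. The plasmid was pcDNA 3.1 and all cultures were collected 48 h after transfection. There were 3 libraries in each group. Whether they came from separate cultures or animals is not given, so the p-values below measure the spread between these libraries, which may be technical, and the oxygen level of the sequenced cultures is not given either.

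Fibronectin is the fibrillar scaffold on which fibroblasts lay down collagen, and cells pull it into fibrils through integrins. The matricellular proteins are secreted into the matrix but mainly change how cells attach to it, rather than bear load. Tenascin C and periostin mark matrix that is being remodelled, SPARC binds collagen and assists its deposition, and osteopontin is a ligand of integrins and of CD44. Thrombospondins 1 and 2 are close relatives that bind the receptors CD36 and CD47, and thrombospondin 1 can also release TGF-β from its latent complex. In the infarcted heart these genes are known as markers of activated fibroblasts and of the healing scar.

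Total counts ran from 13178952 to 17857999 per library. Fto itself, the gene on the plasmid, was at 87.8, 89.6 and 87.4 TMM-normalised CPM (counts scaled to library size, with edgeR's TMM factors, and called CPM from here) in the Vector libraries and at 93.2, 90.8 and 92.9 CPM in the others. In the quasi-likelihood test of edgeR the log2 fold change (log2FC) of the libraries labelled FTO against Vector was 0.06 (SE 0.0468, adjusted p = 0.239), so no rise of Fto mRNA was detected and the group is named by its label throughout, as the libraries labelled FTO. All 10 fibroblast markers examined, such as Col1a1, Vim and Pdgfra, were present in both groups. Against Vector 4 of them were higher and 6 lower at an adjusted p-value under 0.05 in that test. Of all tested genes, 33.2% were higher and 32.8% lower. Other cells left transcripts too. The summed level of 9 cardiomyocyte markers was 1471 to 1502 CPM in Vector and 2220 to 2257 CPM in the libraries labelled FTO, and that of 12 macrophage markers was 1870 to 1930 CPM and 315 to 354 CPM. Of the cardiomyocyte markers 8 were higher and 1 lower, beside the shares over all tested genes just given. The lower one, Tnnt2, went from 770 to 649 CPM. Lyz2, at 1117 and 97.6 CPM, made up most of the macrophage sum in Vector. Tnnt2 and Lyz2 were named after their values were seen. In bulk RNA, fewer cells of a type and less RNA per cell cannot be told apart.

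The upstream sequences of 3 members with different responses are shown first, as Thbs1 and Tnc were lower and Postn was higher in the libraries labelled FTO. Each run ends at the base before the RefSeq transcription start and is written 5′ to 3′ on the strand of the gene, in build GRCr8. The counts were made with rn6 named in the submitters' notes, so these coordinates belong to the sequences only. Capitals mark matches to a GC box of SP1 (GGGCGG), a TEAD motif (GGAATG) and TATA boxes (TATAAA or TATAAG), searched on both strands.
Thbs1, chr3:125510145-125510249, plus strand: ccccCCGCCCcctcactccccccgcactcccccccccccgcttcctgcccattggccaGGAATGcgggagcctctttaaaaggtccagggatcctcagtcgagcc
Tnc, chr5:82476132-82476231, minus strand: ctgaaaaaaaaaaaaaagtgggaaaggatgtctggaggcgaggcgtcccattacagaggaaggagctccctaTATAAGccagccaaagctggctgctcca
Postn, chr2:140677961-140678060, plus strand: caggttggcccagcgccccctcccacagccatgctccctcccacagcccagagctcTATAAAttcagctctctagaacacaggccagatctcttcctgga

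Such a sequence was at hand for 8 of the 10 genes, and those of Fn1 and Thbs2 were not used here. Over the 250 bases before the start, TATAAA was found in 3 of the 8, Tnc, Postn and Spp1, against 12.9% of 33469 rat promoters. The match lay 44 to 39 bases before the start in Postn. In Tnc it lay 208 to 203 bases before, outside the run shown, and in Spp1 204 to 199 bases before. TATAAG was found in Tnc alone, 28 to 23 bases before the start, against 7.01% of promoters. GGAATG, the motif of the TEAD partners of YAP, was found in Sparc, Thbs1 and Thbs4, against 12.1% of promoters. GGGCGG was found in 4 of the 8, Tnc, Thbs1, Thbs3 and Thbs4, against 30.5%. No match to the AP-1 motif TGANTCA, to the CArG box of SRF or to the NF-κB motif stood in these windows, where 6.34%, 1.5% and 3.54% of all promoters had one. Of the genes with TATAAA, Tnc and Spp1 were lower and Postn was higher. A match describes letters only.

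To find which of these matrix genes differed between the groups, 12941 genes were fitted together and the members were read out of that fit. Thbs2 rose 15.6-fold, Postn rose 1.44-fold, and the scarce Sparcl1 rose as well. Tnc fell 6.53-fold and Thbs1 fell 3.30-fold, while Spp1, Thbs3 and Sparc fell by smaller amounts. Fn1, the member with the most counts, did not pass the test. Of 9 members tested, 3 were higher and 5 lower at an adjusted p-value under 0.05, where 65.9% of all tested genes passed, 33.2% higher and 32.8% lower. With the threshold of a log2 fold change of at least 1 and an unadjusted p-value under 0.05, 2 members were higher (Thbs2 and Sparcl1) and 2 lower (Tnc and Thbs1), where 10.4% and 9.27% of all tested genes were. In 8 of the 9 the groups did not overlap in CPM, against 70.3% of all tested genes. The median log2 fold change of the 9, Sparcl1 included, was -0.34, against 0.00 over all genes tested. Sparcl1 passed the filter on low counts only through the libraries labelled FTO, which favours a difference, and Thbs4 did not pass it. Without Sparcl1, 7 of 8 were called, and in 7 of 8 the groups did not overlap. The median then lay between the log2 fold changes of Thbs3 (-0.43) and Sparc (-0.34). Thbs2 was then the only member higher by the threshold that includes the fold change. Most genes of these cells differed between the groups, so these counts are not read as a result about the family, and what follows describes how its members differ from each other.

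**Figure D1:**
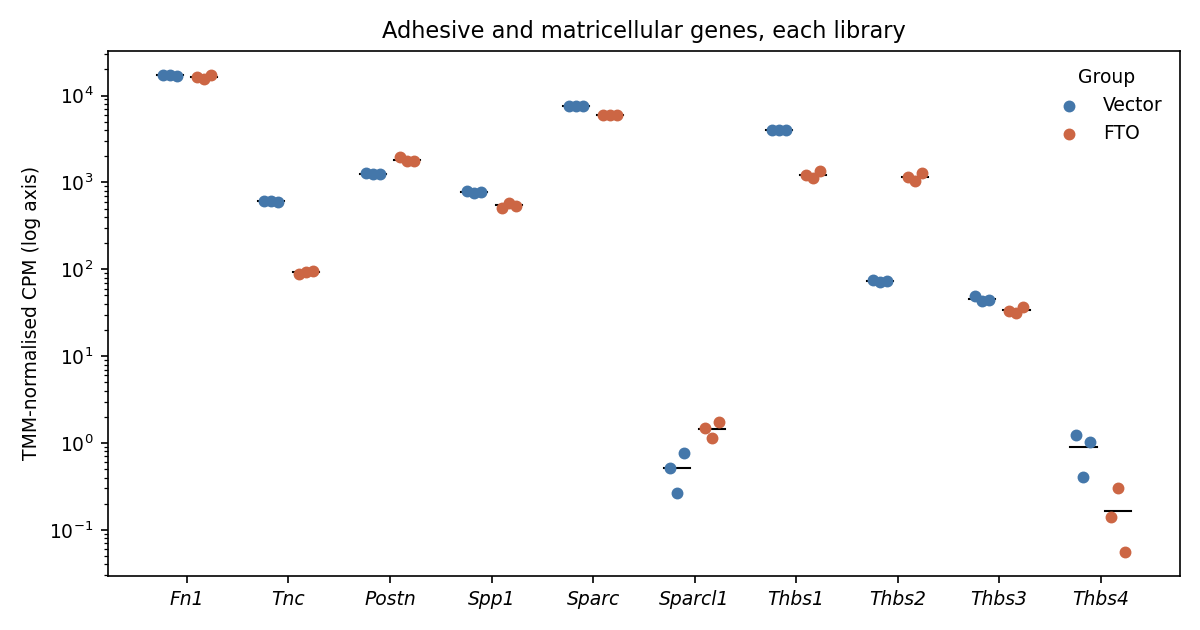
TMM-normalised CPM of each gene (log axis) in the 3 Vector libraries (blue) and the 3 libraries labelled FTO (orange), points being libraries and short lines group means, with no correction for gene length. The groups overlap in Fn1 only, Thbs2 moves from 73.6 to 1150 CPM and Tnc from 605 to 92.6 CPM.

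Fibronectin was the first question, because it is the scaffold that the other members bind or modify. Fn1 was at 17031, 17408 and 16948 CPM in the Vector libraries and at 16443, 15694 and 17253 CPM in the libraries labelled FTO. The third library labelled FTO lay among the Vector values and the other two lay below them. The means were 17129 ± 246 and 16464 ± 779 CPM (SD, 3 libraries each), and edgeR gave a log2FC of -0.06 (SE 0.0410, adjusted p = 0.233). The 95% interval of the fold change ran from 0.904 to 1.02. Without FTO replicate 3, edgeR gave -0.0953 (adjusted p = 0.0104), so this call depends on a single library. Fn1 took 1.71% of all counts in Vector and 1.65% in the libraries labelled FTO. Counts per symbol sum all splice forms, so the extra domains of cellular fibronectin were not measured.

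Tenascin C, a hexameric glycoprotein that loosens the adhesion of cells to fibronectin, showed the strongest fall among the 9 members tested. Tnc was at 610, 605 and 601 CPM in Vector and at 88.7, 92.4 and 96.7 CPM in the libraries labelled FTO. Every Vector library was more than 6 times as high as every library labelled FTO. This was a log2FC of -2.71 (SE 0.0449, edgeR adjusted p = 1.5e-16). Counted from the lowest, its fold change ranked 209 among the 12941 genes tested.

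Periostin, a fasciclin-domain protein that links fibronectin, tenascin C and collagen, went the opposite way. Postn was at 1289, 1239 and 1259 CPM in Vector and at 1942, 1754 and 1747 CPM in the libraries labelled FTO. The lowest library labelled FTO lay above the highest Vector library, and the first of them stood above the other two. The rise was 0.52 on the log2 scale (SE 0.0452, edgeR adjusted p = 6.8e-08). The ratio of Postn to Tnc counts, which is free of gene length when it is compared between groups, was 2.09 ± 0.0344 in Vector and 19.6 ± 1.9995 in the libraries labelled FTO, a 9.42-fold change.

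Osteopontin, a phosphorylated ligand of integrins, was lower. Spp1 was at 790, 758 and 779 CPM in Vector and at 509, 585 and 542 CPM in the libraries labelled FTO. The groups were apart, and the spread was wider in the libraries labelled FTO. The log2FC was -0.51 (SE 0.0481, edgeR adjusted p = 2.0e-07). Macrophages are a known source of osteopontin, and 11 of the 12 macrophage markers fell while 1, Adgre1, rose. The shares over all tested genes were 32.8% lower and 33.2% higher. C1qb and C1qc never exceeded 3 counts in a library labelled FTO and passed the filter only through Vector, and without them 9 of 10 fell. The median log2FC of that list was -1.999. The part of macrophage transcripts in the change of Spp1 was not tested.

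SPARC, which binds collagen and calcium, moved least among the members that passed. Sparc was at 7530, 7493 and 7592 CPM in Vector and at 5989, 5997 and 5920 CPM in the libraries labelled FTO. The libraries of each group lay close together, with a coefficient of variation of 0.66% in Vector and 0.71% in the libraries labelled FTO. A log2FC of only -0.34 (SE 0.0352) was therefore beyond the spread (edgeR adjusted p = 6.2e-07).

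Its relative Sparcl1, known from vessels and the nervous system, was near the limit of detection. Sparcl1 had 7, 4 and 11 counts in the Vector libraries and 21, 15 and 31 counts in the libraries labelled FTO. Every library labelled FTO was above every Vector library, but 1 Vector library alone reached the level of 0.695 CPM that the filter asks for. Its log2FC was 1.51 (SE 0.379), and no p-value is given, because Sparcl1 was tested only through the libraries labelled FTO. Sparcl1 is also found in mural and endothelial cells. Of 7 mural markers tested, 3 rose and 4 fell, and the list of 8 had a summed level of 1117 to 1143 CPM in Vector and 754 to 792 CPM in the libraries labelled FTO. Of 6 endothelial markers tested, 3 rose and 2 fell, and the list of 9, of which Emcn had 0 counts in each Vector library, summed to 121 to 128 CPM and 109 to 117 CPM. Flt1, which fell from 94.3 to 63.5 CPM, made up most of that sum. Cdh5, Kdr and Tek rose, Esam fell and Tie1 did not pass, all named after their values were seen. For both lists, the shares over all tested genes were 33.2% higher and 32.8% lower. The part of either cell type was not tested.

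The thrombospondins changed in opposite directions. Thbs1, the trimeric thrombospondin released by platelets and by activated fibroblasts, was at 4032, 4056 and 4061 CPM in Vector and at 1213, 1121 and 1346 CPM in the libraries labelled FTO. The groups were far apart, and the second library labelled FTO was the lowest. This gave a log2FC of -1.72 (SE 0.0547, edgeR adjusted p = 3.3e-13).

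Thbs2, the trimeric relative of Thbs1 that is known for limiting the growth of vessels, was at 75.4, 71.3 and 74.2 CPM in Vector and at 1140, 1039 and 1270 CPM in the libraries labelled FTO. The order of the libraries labelled FTO was the same as for Thbs1. The rise was 3.97 on the log2 scale (SE 0.0679, edgeR adjusted p = 2.2e-16). Counted from the highest, its fold change ranked 199 among the 12941 genes tested.

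**Figure D2:**
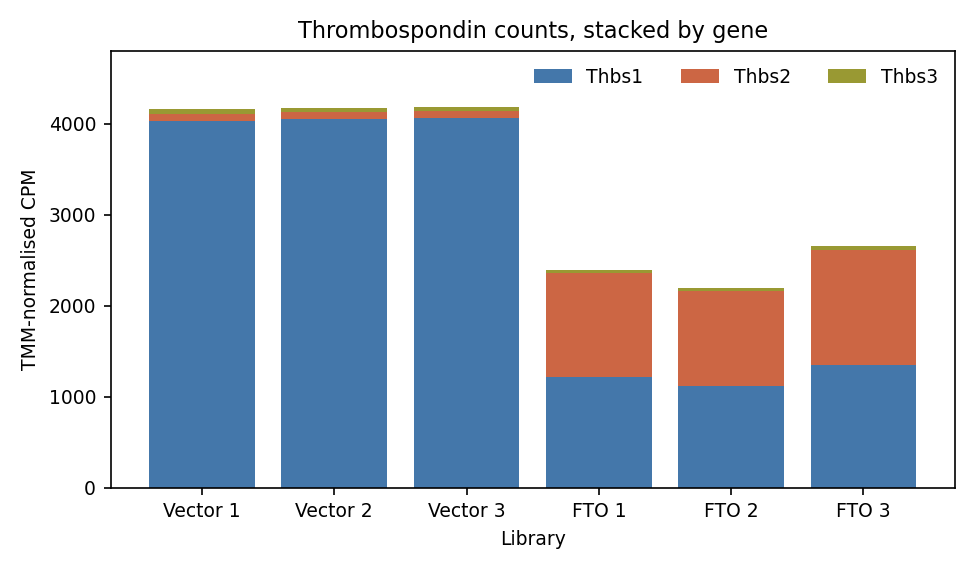
TMM-normalised CPM of Thbs1, Thbs2 and Thbs3 stacked in each of the 3 Vector libraries and the 3 libraries labelled FTO, with no correction for gene length, so each colour is to be compared between libraries. The sum falls from 4170 to 2411 CPM on average while the part from Thbs2 grows from 1.77% to 47.7% of the thrombospondin counts.

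The balance between both genes was followed in each library. There were 0.0187, 0.0176 and 0.0183 counts of Thbs2 for each count of Thbs1 in Vector, and 0.940, 0.927 and 0.943 in the libraries labelled FTO. The ratio changed 51.5-fold between the groups, a value that does not depend on gene length. It was steady within the libraries labelled FTO, where its SD was 0.00867, although Thbs1 and Thbs2 each had a coefficient of variation near 10% there (9.21% and 10.04%). The summed thrombospondin level was 4157, 4171 and 4181 CPM in Vector and 2387, 2192 and 2653 CPM in the libraries labelled FTO, and the libraries labelled FTO lay below every Vector library. Near-identical stretches of both genes could share reads, and how the counting treated such reads is not given.

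Thbs3 and Thbs4 belong to the pentameric thrombospondins, together with cartilage oligomeric matrix protein (Comp). Thbs3 was at 49.2, 42.9 and 44.2 CPM in Vector and at 33.0, 31.0 and 36.9 CPM in the libraries labelled FTO. The groups did not overlap, and the log2FC was -0.43 (SE 0.0773, edgeR adjusted p = 1.8e-04). Thbs4 had 17, 6 and 15 counts in the Vector libraries and 2, 4 and 1 counts in the libraries labelled FTO. Pooled over 3 libraries, this was 0.883 CPM (exact Poisson 95% interval 0.625 to 1.21) and 0.154 CPM (0.0620 to 0.318), intervals that cover counting error only. Thbs4 was left out of the main test by the filter. Without a filter on low counts, its log2FC was -2.45 (SE 0.644, edgeR adjusted p = 0.00112).

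**Figure D3:**
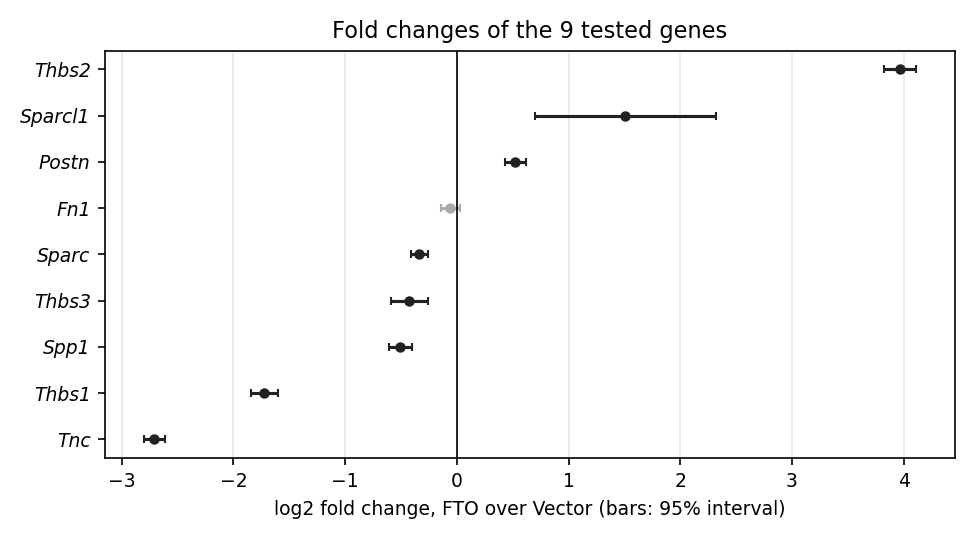
Log2FC, libraries labelled FTO against Vector, for the 9 genes tested, ordered by value, with points for the edgeR estimate, bars for its 95% interval, and grey for an adjusted p-value of 0.05 or more. Thbs2 at 3.97 and Tnc at -2.71 stand at the ends, and the interval of Fn1 alone crosses 0.

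Together the 10 genes held 3.12% to 3.16% of the counts of the Vector libraries and 2.64% to 2.83% of those labelled FTO. Without Fn1, their summed level was 14352 ± 76.2 CPM in Vector and 10833 ± 184 CPM in the libraries labelled FTO. The part of Fn1 in the family's counts was 54.0% to 55.0% and 59.6% to 61.2%. The members differed in how tightly the replicates held. In Vector the coefficient of variation of Thbs1 was 0.39%, close to the 0.41% that counting alone gives, whereas in the libraries labelled FTO it was 9.21% against 0.73%. Sparc kept 0.71% there, against 0.33% from counting. Over the 452 tested genes with a mean of at least 5000 counts, the median coefficient of variation was 1.84% in Vector and 4.12% in the libraries labelled FTO.

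Closest by structure are relatives of the members in the same protein families. Of 15 relatives, 8 had enough counts to be tested, of which 5 were higher and 3 lower, where 33.2% and 32.8% of all tested genes were. Spock2, 1 of the 5, reached the level of the filter in every library labelled FTO but not in every Vector library. Comp rose by 1.93 on the log2 scale, from 1.02 ± 0.0631 to 3.90 ± 0.724 CPM, unlike Thbs3. Comp is also a cartilage gene, and of the cartilage markers Sox9 fell by 3.38 on the log2 scale, from 177 to 16.9 CPM. Acan, which passed the filter only through Vector, went from 82.8 to 0.428 CPM. Hapln1, the remaining one tested, went the other way, from 0.70 to 1.04 CPM, and did not pass. The list of 7 cartilage markers summed to 256 to 265 CPM in Vector and 16.9 to 20.5 CPM in the libraries labelled FTO. Most of that sum came from Sox9 and, in Vector, Acan. Col9a1 and Matn1 were at 0 in every library, and the part of this list in the change of Comp was not tested. Among the relatives of SPARC, Smoc2 rose by 1.5002 on the log2 scale, from 9.53 ± 1.25 to 26.9 ± 4.44 CPM, whereas Smoc1 fell by 1.49 on the log2 scale, from 54.5 ± 2.98 to 19.4 ± 0.712 CPM. Relatives of SPARC thus moved both ways. The follistatin-like protein Fstl1 fell by 1.12 on the log2 scale, from 2244 ± 19.5 to 1031 ± 7.35 CPM. The edgeR adjusted p-values were 5.0e-06 for Comp, 6.4e-08 for Smoc2, 4.3e-11 for Smoc1 and 3.8e-13 for Fstl1. Of the 3 tenascin relatives, Tnxb and Tnn rose, by 1.09 and 0.71, and Tnr was not tested. Tgfbi, the paralogue of periostin, fell by 0.58 on the log2 scale. Tnxb, Tnn, Tgfbi, Acan, Sox9 and Hapln1 were named after their values were seen.

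The receptors of these ligands were then examined. All 18 were tested, and 6 rose, 9 fell and 3 did not pass, so that 15 were called where 65.9% of all tested genes were, 33.2% higher and 32.8% lower. Of the 10 integrin subunits, 7 fell and 2 rose, read against the same shares. Itga4, whose product binds fibronectin and osteopontin, fell by 3.33 on the log2 scale, from 52.7 ± 3.40 to 5.15 ± 1.19 CPM. Stab1, a scavenger receptor that takes up SPARC and is typical of macrophages, fell by 5.22 on the log2 scale, from 112 ± 5.85 to 2.97 ± 0.400 CPM. It moved beside the macrophage markers described above, whose part in it was not tested. Sdc4, the syndecan that works with integrins in focal adhesions, rose by 3.19 on the log2 scale, from 144 ± 0.545 to 1308 ± 30.7 CPM. Ptprz1, a phosphatase receptor of tenascin C, had 4, 1 and 2 counts in Vector and 50, 50 and 43 counts in the libraries labelled FTO. It passed the filter only through the latter and so had to differ, and without it 5 of 17 rose. The edgeR adjusted p-values were 9.7e-13 for Itga4, 3.0e-16 for Stab1 and 9.5e-18 for Sdc4.

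Some receptors of single members are named here after their values were seen. The classical fibronectin receptor pairs Itga5, which rose by 0.34, with Itgb1, which fell by 1.38 on the log2 scale. Cd47, which binds the thrombospondins, rose by 1.17, and Cd44, which binds osteopontin, rose by 1.23. Cd36, which also binds the thrombospondins, was at 5.72 ± 0.758 and 6.69 ± 0.0862 CPM, and its log2FC was 0.23 (SE 0.142, edgeR adjusted p = 0.164). The 95% interval reached from -0.07 to 0.53, and it did not pass.

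**Figure D4:**
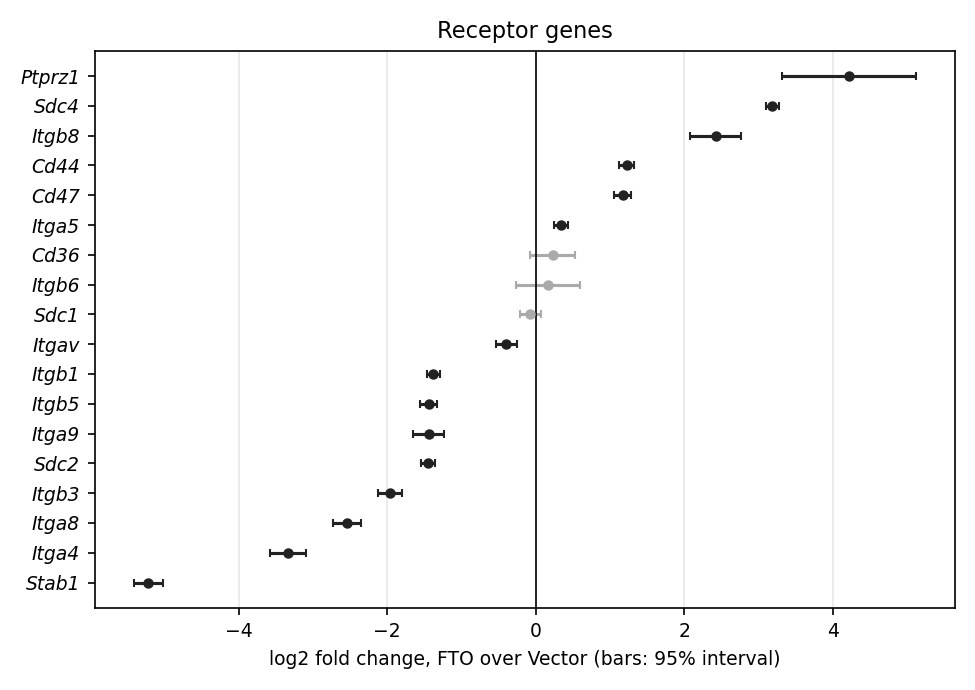
Log2FC, libraries labelled FTO against Vector, for 18 receptor genes, with points for the edgeR estimate, bars for its 95% interval, and grey for an adjusted p-value of 0.05 or more. Ptprz1, which passed the filter only through the libraries labelled FTO, Sdc4 and Itgb8 stand at the upper end and Stab1, Itga4 and Itga8 at the lower, with 6 higher, 9 lower and 3 in grey.

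Genes that assemble, cross-link or cut the members, among them proteases and focal adhesion proteins, numbered 18, and 10 rose and 8 fell, where 33.2% of all tested genes were higher and 32.8% lower. Tgm2, the transglutaminase that cross-links fibronectin, rose by 2.78 on the log2 scale, from 276 ± 6.41 to 1892 ± 140 CPM. Mmp9, a gelatinase, was at 0.934 ± 0.232 and 51.9 ± 14.2 CPM. Mmp3, a stromelysin that cuts fibronectin, had 0 counts in each Vector library and 288, 466 and 280 counts in the libraries labelled FTO, at least 108-fold higher when Vector is set to 3 counts per library. Plau, the urokinase activator of plasminogen, fell by 4.62 on the log2 scale, from 82.0 ± 3.41 to 3.33 ± 0.918 CPM. Mmp3 and Mmp9 did not reach the level of the filter in every Vector library and were tested only because of the libraries labelled FTO, so no p-value is given for them, and without both 8 of 16 rose. The edgeR adjusted p-values were 8.3e-16 for Tgm2 and 1.0e-14 for Plau.

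Lastly, known upstream regulators of the family were compared, mainly of the TGF-β, SRF and YAP pathways. Of 16 tested, 3 rose, 9 fell and 4 did not pass, where 65.9% of all tested genes were called. Tgfb3 fell from 922 ± 10.8 to 35.6 ± 0.941 CPM and Tgfb2 from 252 ± 1.0002 to 68.4 ± 2.75 CPM. The ligands changed by -4.69 and -1.88 on the log2 scale. Smad3, which carries the TGF-β signal to the nucleus, rose from 66.2 ± 3.85 to 171 ± 0.626 CPM, by 1.37 on the log2 scale. The edgeR adjusted p-values were 9.4e-19 for Tgfb3, 1.3e-14 for Tgfb2 and 2.2e-12 for Smad3. Yap1 had a log2FC of -0.07 (SE 0.103, edgeR adjusted p = 0.571), and Tead1 one of -0.26 (SE 0.117, edgeR adjusted p = 0.0646). Among the 9 that fell were Wwtr1, with a log2FC of -0.34 (edgeR adjusted p = 3.9e-04), Srf with -0.27 (edgeR adjusted p = 7.3e-04) and Mkl1 with -0.31 (edgeR adjusted p = 0.0015). Yap1, Tead1, Wwtr1, Srf and Mkl1 were named after their values were seen. The median log2 fold change of the 16 regulators tested was -0.29, beside 0.00 over all genes tested. No median is given for the relatives, the receptors or the assembly and processing genes. Those lists hold genes that reached the filter's level in every library labelled FTO but not in every Vector library.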

How the data were processed

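Whole-number raw counts by gene symbol were deposited, a file for each library, and 4691 of 21857 symbols had no count. Per the labels, the processing notes name Trimmomatic and the build rn6. The aligner, counting program, annotation and use of strand are not given in the sources used here. Groups followed the genotype labels. The members and gene lists were chosen with earlier results of these data known. Genes were kept with filterByExpr at a minimum count of 10, which left 12941 genes holding at least 99.9% of each library, and the TMM factors were 0.995 to 1.01. The groups were compared with the quasi-likelihood test of edgeR 4.0.16 in R 4.3.3, two-sided, with no covariate and Benjamini-Hochberg adjustment over all genes tested. The SE is the absolute log2 fold change over the root of the F statistic. Libraries of a group differed beyond sampling noise (chi-square over degrees of freedom, 1.58 to 8.38). A floor of 3 counts was worth 0.168 to 0.227 CPM. This floor and the exact Poisson intervals of Thbs4 cover counting error only, as there are no molecular identifiers. The intervals of the edgeR estimates rest on the SE given above and so include the spread between libraries. No transcript lengths were used, so sums and ratios over genes carry no correction for length and serve only to compare libraries.

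Named were all 10 members, Fto and, of each partner list, up to 4 genes with the largest change among those with an adjusted p-value under 0.05, a log2 fold change of at least 1 in either direction and no overlap between groups. Mkl2 of the regulators was not analysed here. Upstream sequences are from RefSeq (GRCr8), searched over the 250 bases before each start. Alternatives were DESeq2 1.42.0, limma-voom (limma 3.58.1), DESeq2 size factors or library size alone, no filter or a mean of at least 10 counts, the replicate number as a block, and leaving out each library. The procedure was tested on simulated counts in which only a small part of the genes differed. That setting is unlike these data, where most genes differed, so the simulation does not cover it.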

Additional observations from a re-analysis of the deposited data

How the results depend on the processing

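Under 13 alternatives the number of members higher stayed at 3, and the number lower was 5 to 7, the gains being Thbs4 and Fn1. Sparcl1, 1 of the 3, reached the filter's level in 1 Vector library but in every library labelled FTO. Thbs4 reached it in 2 Vector libraries and in no library labelled FTO. The filter thus favoured a difference in both genes. The number lower was 7 without FTO replicate 3, where Fn1 passed the test and Thbs4 passed the filter and the test. Fn1 had a log2 fold change of -0.0953 there (edgeR adjusted p = 0.0104, against up to 0.536 in the other alternatives). Why Fn1 passed there was not tested. With a library left out, the filter asks for 2 libraries at its level, and 2 Vector libraries reached it for Thbs4. Thbs4 could be fitted without a filter and in 4 of the fits that left out a library, with log2 fold changes from -3.13 to -1.98 there. No member changed sign in an alternative. Sparcl1 ranged from 1.18 to 1.90 on the log2 scale, Thbs2 from 3.89 to 4.04 and Tnc from -2.74 to -2.68. Fto did not pass in any alternative (adjusted p-values 0.182 to 0.450). The counts in the 4 partner lists changed by at most 1. The median log2 fold change of all genes was between -0.01 and 0.01 in every fit.

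No pairing of the libraries by replicate number was seen, though with 3 libraries in each group such a check is weak. Deviations from the group means correlated at 0.00628, -0.0869 and 0.0440 for equal numbers, and at -0.131 to 0.122 for unequal numbers. These correlations are not independent of each other. With the replicate block, 3 members were higher and 5 lower, 8399 genes passed in all, and the log2 fold change of Sparcl1 was 1.48. Depth limits Sparcl1 and Thbs4, with means of 14.8 and 7.5 counts per library.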
